A study of Mus musculus with 9 samples.

Results

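Granule proteases were followed as a set of 10 genes in bone marrow-derived mast cells (BMMCs). The members were Cpa3, Cma1, Mcpt1, Mcpt2, Mcpt4, Mcpt8, Gzmb, Tpsab1, Tpsb2 and Tpsg1, chosen by symbol from the 47643 genes of the deposited count table. All 10 passed the filter on low counts, a median above 1 CPM (counts scaled to a common library total) over the libraries, and 11560 genes did so in all. The cells were grown from the bone marrow of C57BL/6 mice for at least 4 weeks in medium conditioned by WEHI-3 cells, a source of interleukin-3. They were left untreated (Control), given IgE and the antigen DNP-BSA (IgE+BSA), or given both together with the flavone luteolin (IgE+BSA+Luteolin), and each of these 3 groups had 3 libraries. The labels give 10 uM luteolin and 24 hours in the same words for every sample, and the order of luteolin and antigen is not clear from the sources used here. Neither the age of the mice nor whether the libraries of a group came from separate cultures is stated, so the p-values below measure the spread between these libraries, which may be technical.

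Mast cells store active proteases in their granules, bound to the proteoglycan serglycin and its heparin chains, and release them within minutes of IgE receptor crosslinking. The stores are refilled by new transcription and translation. Chymases cut after aromatic residues, tryptases after lysine and arginine, and carboxypeptidase A3 trims the ends of peptides. Mucosal and connective tissue mast cells of the mouse differ in which of these enzymes they hold. Most of them are made as inactive forms and trimmed by cathepsin C, a dipeptidyl peptidase encoded by Ctsc.

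The genes lie at 3 places in the GRCm38 genome. Cpa3 (ENSMUSG00000001865), the metallocarboxypeptidase, lies on chr3:20215620-20242181. The chymase locus on chromosome 14 holds 6 members within 320.8 kb. In order they are Cma1 (chr14:55941451-55944675), Mcpt1 (chr14:56017971-56020384), Mcpt2 (chr14:56042041-56044642), Mcpt4 (chr14:56059629-56062313), Mcpt8 (chr14:56082166-56085273) and Gzmb (chr14:56258838-56262260). The tryptases Tpsab1 (chr17:25343245-25345562), Tpsb2 (chr17:25366305-25369098) and Tpsg1 (chr17:25369273-25374442) lie within 31.2 kb. Exons of Tpsg1 overlap those of Cacna1h on the opposite strand by 158 bases, and the strand setting of the counting is not given, so Tpsg1 counts carry that uncertainty. Of the 50-base windows in the transcripts, 5.48% in Mcpt4 also occur in Cma2 or Mcpt9 and 5.38% in Cma1 occur in Gm48934. The other 8 members shared none with another gene, so Tpsab1 and Tpsb2 could be told apart.

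Depth ran from 9515004 counts in Control replicate 2 to 24605689 in IgE+BSA+Luteolin replicate 2, where 3 counts equalled 0.291 and 0.121 CPM. All levels, these included, are given in CPM scaled by TMM factors. The cells held mRNA of all 10 mast cell markers listed, Kit and Fcer1a among them, with a summed level of 19013 to 23094 CPM. Control replicate 1 stood apart from the other Control libraries. Over the log2 CPM of the genes tested, Control replicate 1 correlated at r = 0.944 with each of Control replicates 2 and 3, which correlated at 0.991 with each other, and at 0.979 to 0.980 with the IgE+BSA+Luteolin libraries. These are correlations across genes, which are not independent replicates.

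Several granule proteases were among the genes that separated the Control libraries. Mcpt2, a member of the mucosal group of chymases, was at 4550.4 CPM in Control replicate 1 and at 180.4 and 158 CPM in replicates 2 and 3. Mcpt1, the main mucosal chymase, was at 153, 6.01 and 5.19 CPM. Mcpt8, a protease best known from basophils, was at 432, 21.8 and 18.7 CPM. Mcpt4, the connective tissue chymase, was at 1752, 201 and 197 CPM. For these 4 genes Control replicate 1 was thus 8.70 to 29.5 times as high as the other Control libraries. Only 24 of the 11560 genes tested (0.208%) were over 10 times as high in Control replicate 1 as in both others. Mcpt1, Mcpt2 and Mcpt8 were among them, and Mcpt4, at 8.70 and 8.90 times, was not. Cma1, Gzmb, Tpsb2, Tpsg1 and Cpa3 were 1.41 to 2.85 times as high in Control replicate 1, and Tpsab1 was lower there, at 0.549 and 0.577 of its level in the others.

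Neutrophil markers moved with this split. The summed level of 10 neutrophil and granulocyte precursor markers was 357 CPM in Control replicate 1 against 58.3 and 47.8 CPM in replicates 2 and 3. It was 254 to 274 CPM in IgE+BSA and 286 to 327 CPM in IgE+BSA+Luteolin. Of these markers, 9 of 10 were more than 2 times as high in Control replicate 1 as in both others, the exception being Ctsg. Elane had 166, 0 and 5 counts in the Control libraries, Ltf 414, 1 and 0, and Camp 137, 0 and 1. Of 6 eosinophil markers, 3 were more than 2 times as high in Control replicate 1 as in both others. Among them Prg2 had 648, 1 and 0 counts, whereas Siglecf was lower in replicate 1 (4.14, 12.9 and 10.1 CPM). The 6 eosinophil markers summed to 25.2 to 56.1 CPM in Control, 46.2 to 50.03 CPM in IgE+BSA and 42.0 to 50.6 CPM in IgE+BSA+Luteolin. The 6 basophil markers, which did not include Mcpt8, had summed levels of 2447, 2370 and 2339 CPM in the Control libraries, with Cd69 higher in replicate 1 (695, 363 and 387 CPM) and Cd200r3 lower (688, 1045 and 1023 CPM). None was more than 2 times as high in replicate 1 as in both others. They summed to 2814 to 2913 CPM in IgE+BSA and 1959 to 2107 CPM in IgE+BSA+Luteolin. Without Cd69 the other 5 summed to 1752, 2006 and 1953 CPM in Control, 1448 to 1471 CPM in IgE+BSA and 1566 to 1703 CPM in IgE+BSA+Luteolin. The lower sum with luteolin than in IgE+BSA thus rested on Cd69. Against Control the luteolin sum was lower with Cd69 and without it. The 8 macrophage markers summed to 347 to 351 CPM in Control, 366 to 397 CPM in IgE+BSA and 373 to 405 CPM in IgE+BSA+Luteolin. Most of this was Adgre1 and Lyz2, while C1qa, C1qb, C1qc and Mertk were each at most 0.484 CPM in any library. Erythroid markers summed to 61.4 to 116.6 CPM, of which Hbb-bt alone was 61.2 to 114.6 CPM. T, NK and B cell markers summed to at most 4.52 CPM per list in any library, with Cd3e and Ms4a1 at 0 throughout. The part of these cells in the protease levels was not tested. In bulk RNA, fewer cells of a type and less RNA per cell cannot be told apart.

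**Figure D1:**
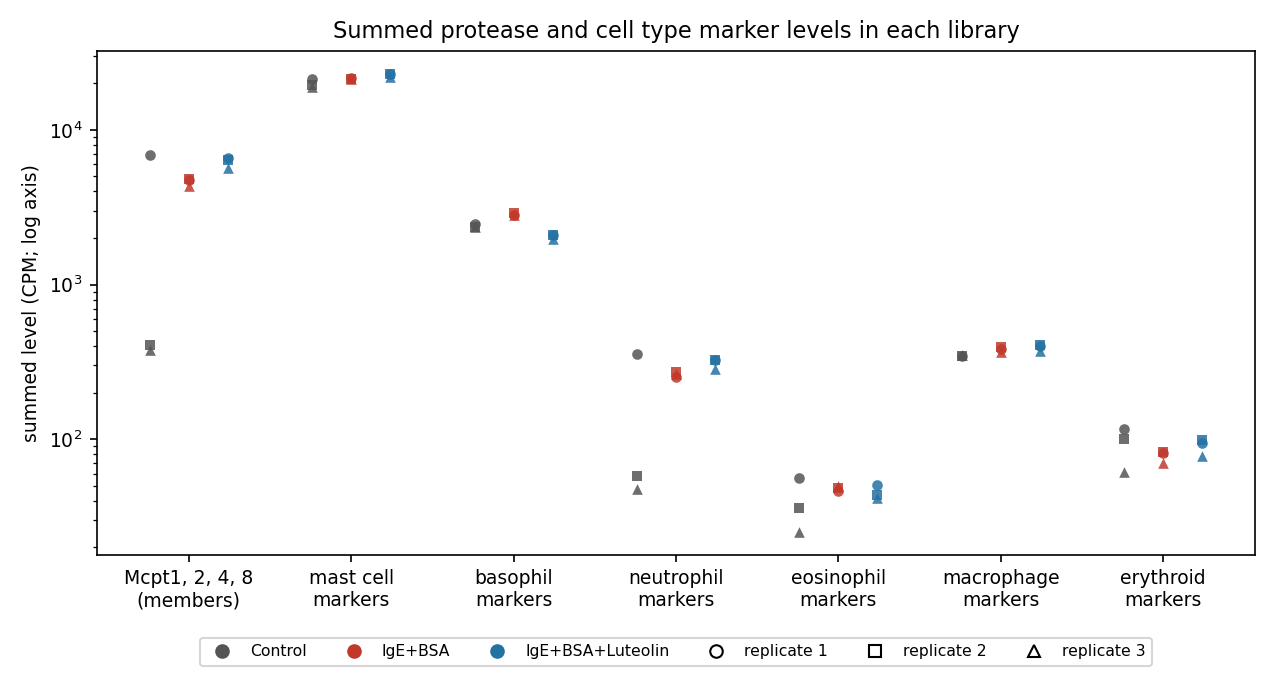
Summed level in CPM (log axis) of Mcpt1, Mcpt2, Mcpt4 and Mcpt8 and of 6 marker lists, each point 1 library, coloured by group and shaped by replicate. Control replicates 2 and 3 lie at 410 and 378 CPM for the 4 proteases and at 58.3 and 47.8 CPM for the neutrophil markers, below the other 7 libraries in both. Their mast cell markers, at 19604 and 19013 CPM, also lie below the other 7 libraries in sum, which reach 21347 to 23094 CPM. Single mast cell markers differed. In Control replicates 2 and 3 Srgn was lowest of all libraries (3342 and 2942 CPM). Kit (2306 and 2481 CPM) and Gata2 (1704 and 1894 CPM) were highest there.

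Start sites were available for 7 members in a RefSeq table of GRCm38.p6, and 3 upstream regions are shown because they belong to Cpa3, the most abundant member, and to Mcpt1 and Mcpt4, a mucosal and a connective tissue chymase whose fold changes had the same sign in each fit given below. Each is the 250 bases before the start, written 5′ to 3′ on the gene's strand, with matches to the GATA motif in capitals. They lie at chr3:20242182-20242431 (minus strand), chr14:56017714-56017963 (plus strand) and chr14:56062311-56062560 (minus strand).
Cpa3: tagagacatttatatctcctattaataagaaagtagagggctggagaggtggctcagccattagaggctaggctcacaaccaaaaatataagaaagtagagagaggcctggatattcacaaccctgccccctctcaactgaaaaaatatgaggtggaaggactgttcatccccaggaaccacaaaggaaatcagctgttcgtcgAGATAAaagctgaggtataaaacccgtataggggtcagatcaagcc
Mcpt1: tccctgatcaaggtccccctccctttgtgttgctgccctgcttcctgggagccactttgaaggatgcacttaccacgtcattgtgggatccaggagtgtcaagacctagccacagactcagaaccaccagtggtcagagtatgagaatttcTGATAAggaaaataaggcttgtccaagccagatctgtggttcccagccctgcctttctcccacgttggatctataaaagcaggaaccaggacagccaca
Mcpt4: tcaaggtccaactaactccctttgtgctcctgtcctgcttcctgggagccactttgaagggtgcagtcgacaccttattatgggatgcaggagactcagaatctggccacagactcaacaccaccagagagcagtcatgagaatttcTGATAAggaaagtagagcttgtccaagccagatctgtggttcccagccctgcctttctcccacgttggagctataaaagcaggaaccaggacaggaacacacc

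The motif searched was AGATAA or TGATAA on both strands, a form bound by GATA factors such as Gata2, a regulator of mast cell identity. It lay 46 to 41 bases before the start in Cpa3, 99 to 94 bases in Mcpt1 and 103 to 98 bases in Mcpt4. The first of 2 starts of Tpsg1 also held 1 match, and Cma1, Mcpt8, Gzmb and the second start of Tpsg1 held none in this window. Other GATA forms, such as AGATAG, were not searched for. Of 32851 mouse promoters, 16.6% held a match in the same length. A second motif, CATGTG or CACGTG, an E-box form bound by the mast cell factor Mitf, was in 17.6% of promoters and in none of these members. The Mcpt1 and Mcpt4 regions were identical at 209 of 258 aligned positions (81.0%), including TGATAA, while all other pairs of regions (1 start per gene) were 45.0% to 50.4% identical. A match describes the letters and not binding, which was not measured.

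Luteolin was associated with more mRNA of most granule proteases in antigen-stimulated cells and less of Tpsab1. Between IgE+BSA+Luteolin and IgE+BSA, 8 members rose and 1 fell by edgeR's quasi-likelihood test at an adjusted p under 0.05, fitted to these 6 libraries. Of all genes tested, 40.0% passed this test, 18.1% higher and 21.9% lower. The median log2 fold change was 0.33 over the members and 0.02 over all genes. The libraries of both groups did not overlap for 8 members, against 50.3% of all genes.

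Cpa3 was at 24808, 25527 and 23045 CPM in IgE+BSA and at 33664, 31663 and 28402 CPM in IgE+BSA+Luteolin. Every luteolin library was above every IgE+BSA library. The log2 fold change was 0.36 (SE 0.06, adjusted p = 0.000232 by edgeR), or 1.28-fold.

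The chymases rose by a similar size. Mcpt1 was at 96.3, 101 and 91.8 CPM in IgE+BSA and at 157, 137 and 120.0 CPM with luteolin, a log2 fold change of 0.52 (SE 0.08, adjusted p = 8.16e-05 by edgeR). This was the highest of the members. Mcpt2 was at 3207, 3252 and 2931 CPM and at 4525, 4400.4 and 3879 CPM, a log2 fold change of 0.45 (SE 0.06, adjusted p = 2.81e-05 by edgeR). Mcpt4 was at 1129.6, 1158 and 1027 CPM and at 1574, 1513 and 1351 CPM, a log2 fold change of 0.42 (SE 0.06, adjusted p = 7.06e-05 by edgeR). Cma1, which encodes mMCP-5, a chymase by descent with elastase-like cutting, was at 7012, 7477 and 6389.7 CPM and at 9464, 8932 and 8087 CPM. Its log2 fold change was 0.35 (SE 0.07, adjusted p = 0.000567 by edgeR). In none of these 4 genes did the groups overlap.

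Mcpt8 and Gzmb, their neighbours in the locus, moved less. Mcpt8 was at 297, 330.0 and 292 CPM in IgE+BSA and at 368, 363 and 328 CPM with luteolin, so that the lowest luteolin library lay just under the highest IgE+BSA library. Its log2 fold change of 0.21 (SE 0.06) passed the test (adjusted p = 0.0155 by edgeR). Gzmb encodes granzyme B, which cuts after aspartate and is best known from cytotoxic lymphocytes. It was at 3493, 3657 and 3378 CPM and at 3791, 3771 and 3349.9 CPM. These groups overlapped, and the log2 fold change of 0.05 (SE 0.06) did not pass (adjusted p = 0.472 by edgeR). With library size alone as the scaling, Gzmb passed at 0.17 (adjusted p = 0.0133 by edgeR), a scaling that moved the median of all genes from 0.02 to 0.13.

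The tryptases went in opposite directions. Tpsb2, which encodes the soluble granule tryptase mMCP-6, was at 17370.2, 20083 and 16885 CPM in IgE+BSA and at 23997, 23032 and 20622 CPM with luteolin, with no overlap. It rose by a log2 fold change of 0.32 (SE 0.07, adjusted p = 0.00145 by edgeR). Tpsg1, a tryptase held to the membrane, was at 472, 515 and 458 CPM and at 572, 565 and 520.4 CPM, and rose by 0.20 (SE 0.06, adjusted p = 0.0142 by edgeR). Tpsab1 was at 559, 469 and 611 CPM in IgE+BSA and at 219, 218 and 219 CPM with luteolin. The 3 luteolin libraries were nearly equal and all far below IgE+BSA. The log2 fold change of -1.32 (SE 0.08, adjusted p = 3.01e-10 by edgeR) was a 2.49-fold decrease. Tpsab1 encodes mMCP-7, which C57BL/6 mice do not make as protein because of a change at a splice site, so here only its RNA was measured. The ratio of Tpsb2 to Tpsab1 counts was 27.6 to 42.8 in IgE+BSA and 94.0 to 109.7 with luteolin.

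**Figure D2:**
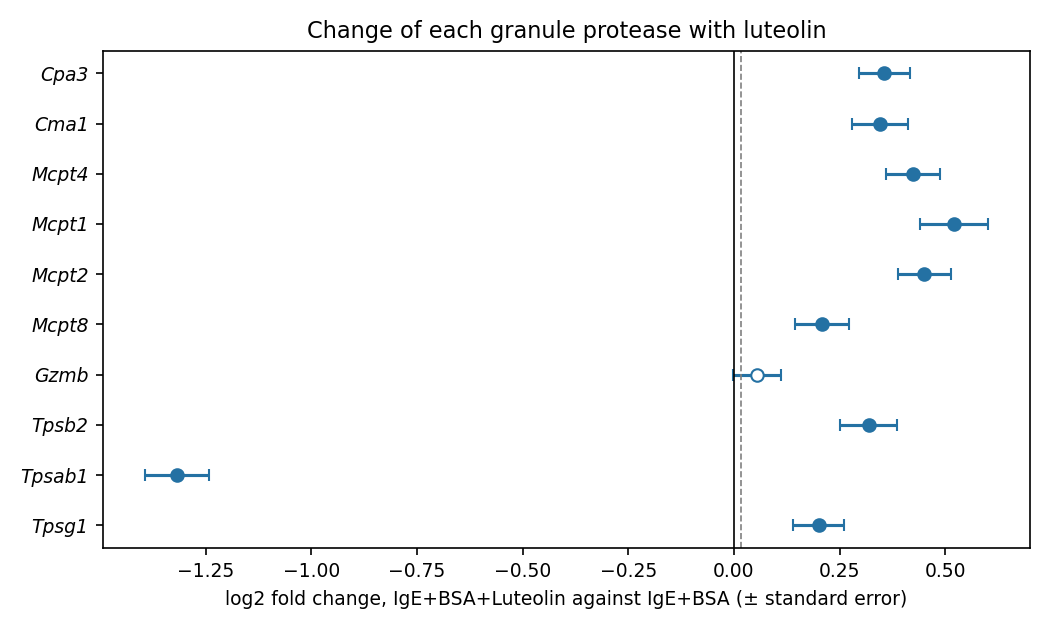
Log2 fold change of each member between IgE+BSA+Luteolin and IgE+BSA (x axis), from edgeR on 3 libraries per group. Bars are standard errors computed from edgeR's test. Filled points passed an adjusted p under 0.05, the open point (Gzmb) did not, and the dashed line marks the median of all genes at 0.02. Tpsab1 at -1.32 stands apart from the other 9, which lie between 0.05 and 0.52.

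With the Control libraries in the same fit, the log2 fold changes stayed within 0.05 to 0.52 for the 9 other members, but only Tpsab1 passed (log2 fold change -1.32, adjusted p = 0.00236 by edgeR), where 9.46% of all genes did. Mcpt8 and Tpsg1 did not pass without IgE+BSA replicate 1, IgE+BSA replicate 3, IgE+BSA+Luteolin replicate 1 or IgE+BSA+Luteolin replicate 2, which left 7 members called in each case, where 29.1%, 31.0%, 28.0% and 28.4% of all genes were called. Of 10 neutrophil markers, 2 rose in this comparison, S100a8 and S100a9 (log2 fold changes 0.43 and 0.32). Of 6 basophil markers, 2 rose, Prss34 and Cd200r3 (0.24 and 0.20), and Cd69 fell (-1.81). Of 4 eosinophil markers tested, Siglecf fell (-1.07) and none rose. Of 10 mast cell markers, 3 rose and 3 fell, where 18.1% of all genes rose and 21.9% fell. Those that rose were the IgE receptor chains Fcer1a, Ms4a2 and Fcer1g at 0.42, 0.30 and 0.29. Those that fell were Hdc, which makes histamine, at -1.16, Hpgds, a prostaglandin synthase, at -0.22, and Mitf at -0.19. The part of these genes' cells in the protease changes was not tested.

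**Figure D3:**
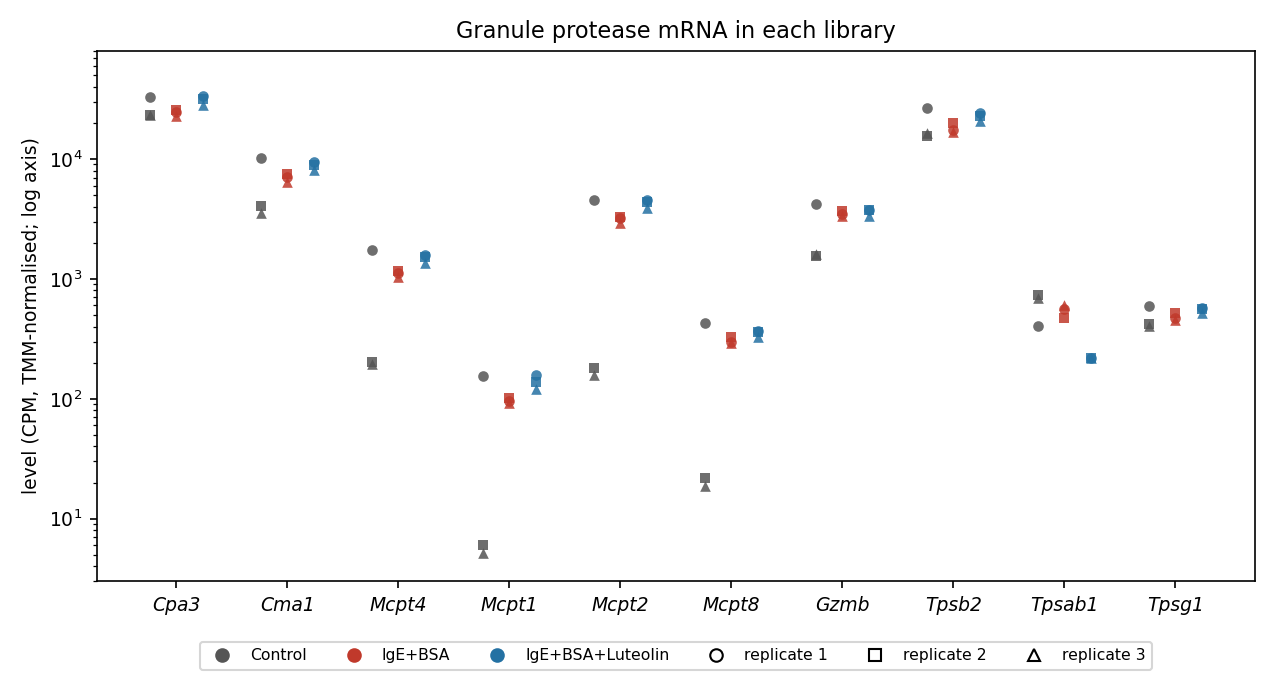
Level of each member in CPM (log axis) in the 9 libraries, coloured by group and shaped by replicate. Tpsab1 lies at 218 to 219 CPM in all 3 IgE+BSA+Luteolin libraries, below the other 6, and Control replicates 2 and 3 lie lowest for Mcpt1, Mcpt2, Mcpt4 and Mcpt8.

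Against Control, stimulation gave no member a change that passed. Between IgE+BSA and Control, 0 of 10 members passed by edgeR's quasi-likelihood test, where 3.27% of all genes did and 2.25% of all genes passed as higher in IgE+BSA. At an unadjusted p under 0.05, the number was 0 by edgeR and 0 by limma, with a lowest p of 0.234 and 0.0605, where 20.4% and 20.6% of all genes were under 0.05. By DESeq2 it was 0 of 6, against 22.4% of all genes with a p, with a lowest p of 0.210, since DESeq2 gave no p for Mcpt1, Mcpt2, Mcpt4 and Mcpt8. The IgE+BSA libraries overlapped the range of the Control libraries for all 10 members, while 28.7% of all genes did not overlap. The standard error of the log2 fold change was 1.09 to 1.17 for Mcpt1, Mcpt2 and Mcpt8 and 0.81 for Mcpt4, against 0.17 to 0.39 for the other members. The levels of Control replicates 2 and 3 lay below all IgE+BSA libraries, and that of Control replicate 1 above them, for Cma1, Gzmb, Mcpt1, Mcpt2, Mcpt4, Mcpt8, Tpsb2 and Tpsg1, and the other way round for Tpsab1.

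The result therefore turned on the Control libraries used. Without Control replicate 1, 7 members passed, where 45.0% of all genes did. Mcpt2, Mcpt1 and Mcpt8 were then higher in IgE+BSA by log2 fold changes of 4.16, 4.09 and 3.89, Mcpt4 by 2.42, Gzmb by 1.10 and Cma1 by 0.82, and Tpsab1 was lower (-0.44). With Control replicate 1 as the only Control library, all 10 passed, where 42.3% of all genes did, and the directions were opposite. Mcpt1 and Mcpt4 were then lower in IgE+BSA, by log2 fold changes of -0.69 and -0.68, and Tpsab1 was higher (0.42). The last fit assumes that a single Control library varies like the IgE+BSA libraries. Which Control library stands for untreated cells cannot be told from these data.

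Between IgE+BSA+Luteolin and Control, Tpsab1 fell and no other member passed by edgeR's quasi-likelihood test, where 3.04% of all genes passed and 2.75% were lower. At an unadjusted p under 0.05 the number of members was 1 by edgeR, 5 by limma, and 1 of 7 by DESeq2, which gave no p for Mcpt2, Mcpt4 and Mcpt8. Of all genes with a p, 22.9%, 22.9% and 25.6% were under it by edgeR, limma and DESeq2. Tpsab1 was at 402, 733 and 697 CPM in Control and at 218 to 219 CPM with luteolin, with no overlap, against 28.5% of all genes without overlap. Its log2 fold change was -1.49 (SE 0.22, adjusted p = 0.0208 by edgeR). It fell in this comparison with each choice of Control, by -1.72 without Control replicate 1 and by -0.88 with Control replicate 1 alone. It did not pass when Control replicate 2 or 3 or any luteolin library was left out (adjusted p = 0.0826 to 0.143 by edgeR). Without Control replicate 1, all 10 members passed, 9 of them higher, where 60.0% of all genes did. With Control replicate 1 alone 4 passed, where 21.2% of all genes did, and Mcpt4, Mcpt8 and Tpsb2 were lower beside Tpsab1. All 3 comparisons share libraries with each other and are not independent.

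**Figure D4:**
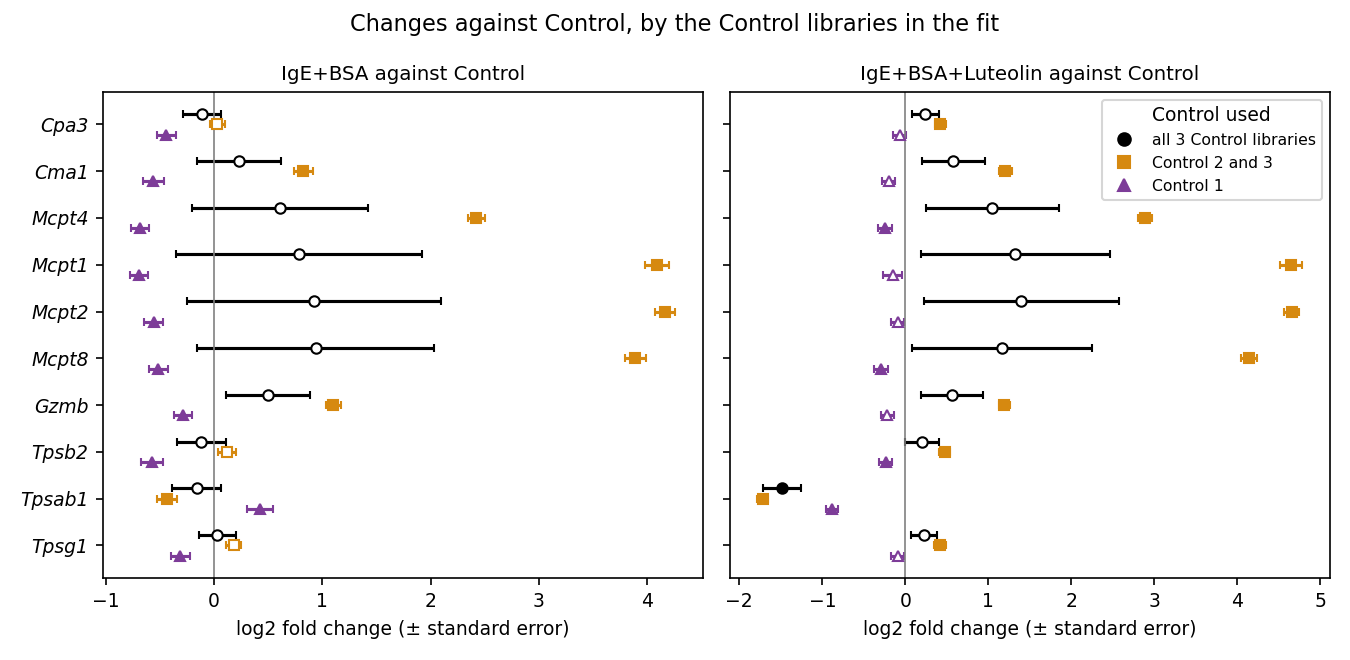
Log2 fold change of each member for IgE+BSA against Control (left) and IgE+BSA+Luteolin against Control (right). Bars are standard errors computed from edgeR's test. Fits used all 3 Control libraries (circles), replicates 2 and 3 (squares) or replicate 1 alone (triangles). Filled points passed an adjusted p under 0.05. Mcpt1, Mcpt2, Mcpt4 and Mcpt8 lie at 2.42 to 4.16 in the left panel with Control replicates 2 and 3 and below 0 with Control replicate 1.

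Per length of transcript, Cpa3 and Tpsb2 were the most abundant members in every group. In IgE+BSA, Cpa3 was at 16124 ± 842 RPKM (CPM per kilobase of exon, SD, n = 3), Tpsb2 at 11363 ± 1081 and Cma1 at 6385 ± 500.5 RPKM. Mcpt2 (2950.1 ± 164 RPKM), Gzmb (2444 ± 97.8 RPKM) and Mcpt4 (997 ± 61.9 RPKM) followed, none overlapping its neighbour. Tpsg1 at 347 ± 21.4 RPKM and Mcpt8 at 307 ± 20.8 RPKM overlapped. Tpsab1 (261 ± 34.4 RPKM) and Mcpt1 (95.1 ± 4.52 RPKM) were lowest. With luteolin the order was the same except at its end, where Mcpt1 (136 ± 18.1 RPKM) lay above Tpsab1 (104 ± 0.383 RPKM) without overlap. In Control, the spread of Mcpt2 (1536 ± 2384 RPKM) and of Mcpt1 (54.1 ± 84.2 RPKM) was larger than the mean, Cpa3 overlapped Tpsb2, and from Gzmb down each member overlapped the next.

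Granule proteases were a large part of these transcriptomes. The 10 genes took 5.47%, 5.81% and 5.18% of all counts in the IgE+BSA libraries and 7.89%, 7.49% and 6.88% in the IgE+BSA+Luteolin libraries, so every luteolin library was higher. They took 8.21% in Control replicate 1 and 4.98% and 5.01% in replicates 2 and 3. The 95% Wilson intervals, which cover counting error only, reach 0.00902 to 0.0138 percentage points to either side. Cpa3 had the most counts of any gene and Tpsb2 the next most in all 9 libraries. Cma1 was at rank 3 in the luteolin libraries and in Control replicate 1, at ranks 5 to 7 in IgE+BSA, and at ranks 10 and 13 in Control replicates 2 and 3.

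**Figure D5:**
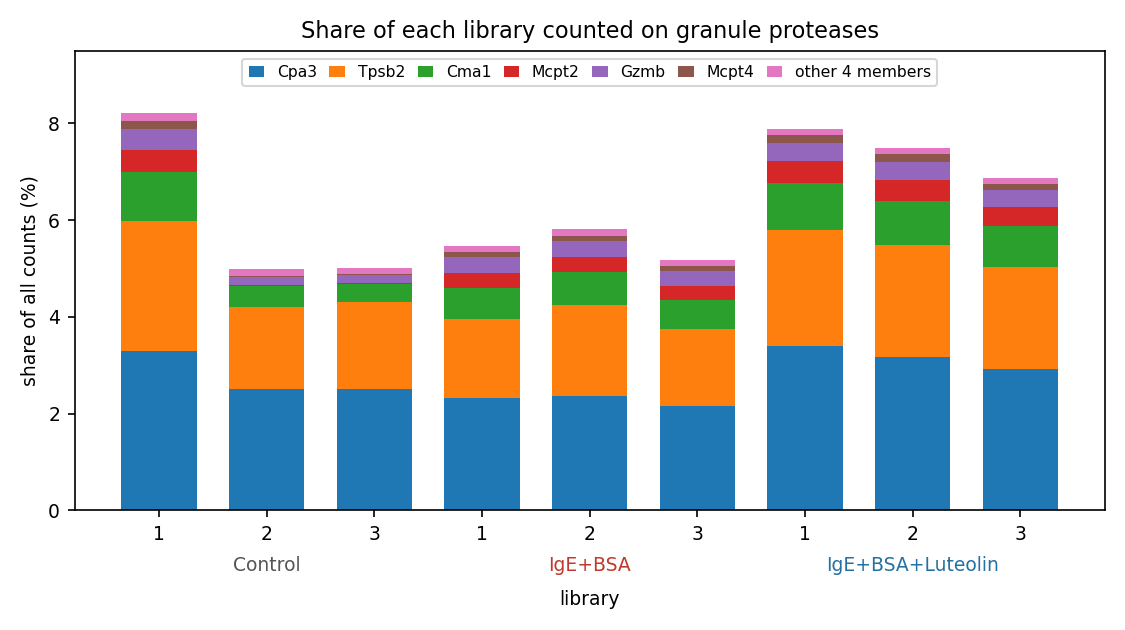
Share of all counts in percent (y axis from 0) taken by the members in each of the 9 libraries, stacked by gene. The stacks reach 6.88% to 7.89% in IgE+BSA+Luteolin, 5.18% to 5.81% in IgE+BSA, and 8.21%, 4.98% and 5.01% in Control.

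Set against Cpa3 within each library, which removes the library scaling, Cma1 and Tpsb2 overlapped between the stimulated groups and the other 7 members did not, where 60.9% of all other genes tested did not overlap in their ratio to Cpa3. The log2 ratio of Cma1 to Cpa3 was -1.85 to -1.77 in IgE+BSA and -1.83 to -1.81 with luteolin. That of Tpsb2 was -0.51 to -0.35 and -0.49 to -0.46. Mcpt2 and Mcpt4 moved up slightly without overlap, from -2.97 to -2.95 up to -2.90 to -2.85 for Mcpt2 and from -4.49 to -4.46 up to -4.42 to -4.39 for Mcpt4. Mcpt1 also moved up, from between -8.01 and -7.97 to between -7.89 and -7.75. Mcpt8 moved down from between -6.39 and -6.27 to between -6.52 and -6.44, and Tpsg1 from between -5.72 and -5.63 to between -5.88 and -5.77. Gzmb moved down from between -2.83 and -2.77 to between -3.15 and -3.07, and Tpsab1 from between -5.77 and -5.24 to between -7.27 and -7.02. In the Control libraries the ratio of Mcpt2 to Cpa3 ran from -7.20 to -2.85, while that of Tpsg1 stayed between -5.84 and -5.79.

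Genes that process and hold the proteases were described from a list of 7, all tested. Between IgE+BSA+Luteolin and IgE+BSA 1 rose and 2 fell, against 18.1% and 21.9% of all genes. Ctsc, whose product activates granule serine proteases, was at 664, 500.1 and 456 CPM in Control, 1411, 1335 and 1437 CPM in IgE+BSA and 659, 697 and 712 CPM with luteolin. All IgE+BSA libraries were above all others. It rose with stimulation by a log2 fold change of 1.37 (SE 0.16, adjusted p = 0.00622 by edgeR) and was lower with luteolin by -1.01 (SE 0.05, adjusted p = 1.13e-10 by edgeR), while Cpa3, Cma1, Mcpt1, Mcpt2 and Mcpt4 rose with luteolin. Cathepsin L (Ctsl) also fell with luteolin (-0.49) and cathepsin B (Ctsb) rose (0.22). Srgn, the core of the proteoglycan that binds the proteases, was at 4349 to 4703 CPM in IgE+BSA and 4374 to 4842 CPM with luteolin. Its log2 fold change was 0.03 (SE 0.05, adjusted p = 0.653 by edgeR). Ndst2, needed to sulfate heparin, had 0.05 (SE 0.05).

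Protease inhibitors formed a list of 13, of which 11 were tested, and 6 rose and 3 fell with luteolin, where 18.1% of all genes rose and 21.9% fell. The median log2 fold change was 0.20, and 0.02 over all genes. Serpina3f, a serpin close to antichymotrypsin, was at 95.2, 133 and 116 CPM in Control, 207, 202 and 198 CPM in IgE+BSA and 68.6, 71.4 and 68.6 CPM with luteolin, with no overlap between the groups. It rose with stimulation (log2 fold change 0.82, adjusted p = 0.0236 by edgeR), fell with luteolin (-1.54, adjusted p = 6.06e-13 by edgeR) and ended below Control (-0.73, adjusted p = 0.0434 by edgeR). Serpina3g and Serpinb1a fell by 0.39 and 0.32 on the log2 scale. Spint1, an inhibitor of membrane serine proteases, and Slpi, a secreted inhibitor of elastase and chymase, fell with stimulation (-0.75 and -0.63) and rose with luteolin (0.52 and 0.20). Serpinb9, which inhibits granzyme B, rose with luteolin (0.31), as did Spink2 (0.32), Serpinb6a (0.16) and the carboxypeptidase inhibitor Lxn (0.23). Spink2 was at 20.7, 4.65 and 4.29 CPM in Control and showed the split of the mucosal chymases.

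Of the other genes in the protease loci, few passed the filter on low counts. In the chymase locus 9 further genes were in the table and 3 passed the filter, namely Cma2, Ctsg and Gzmc, with log2 fold changes between IgE+BSA+Luteolin and IgE+BSA of -0.29, 0.14 and 0.17 (adjusted p = 0.208, 0.11 and 0.264 by edgeR). In the tryptase locus 10 were in the table, 6 had 0 counts throughout and 2 passed the filter. Of these, Prss34, the basophil tryptase mMCP-11, was at 513 to 558 CPM in IgE+BSA and 580.5 to 661 CPM with luteolin and rose by 0.24 (SE 0.06, adjusted p = 0.0047 by edgeR). Of 12 other metallocarboxypeptidases, Cpb1 and Cpd passed the filter, with log2 fold changes of 0.52 and -0.02 (adjusted p = 0.0969 and 0.835 by edgeR). Gzmd, a granzyme singled out after its values were seen, did not pass the filter. It had 1, 0 and 1 counts in Control, 150, 139 and 94 in IgE+BSA and 18, 21 and 7 with luteolin. Of its 50-base windows, 21.9% also occur in other granzyme genes, so reads may have been split among them.

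The genes whose pattern over the 9 libraries was most like a member's were taken from 8499 other genes with a mean of at least 10 CPM, by Pearson's r of log2 CPM. The libraries share their groups and the Control split, so these r are descriptions. For Cpa3 they were Mdh1 (r = 0.989), Fam3a (0.985), Ten1 (0.985), Mrpl39 (0.984) and Prpsap1 (0.981). For Tpsab1, the member with the largest change with luteolin, they were Arrdc3 (0.991), Bcl6 (0.989), Maml1 (0.987), Kctd11 (0.986) and Fam43a (0.985). Arrdc3 averaged 27.8 CPM in Control, 20.1 CPM in IgE+BSA and 4.25 CPM with luteolin, and Bcl6 19.2, 15.4 and 3.03 CPM.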

How the data were processed

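RNA of 9 BMMC libraries was sequenced from stranded mRNA libraries. The authors filtered the reads with HTStream, aligned them to mm10 with STAR 2.7.0f (named in the submitters' processing notes) and deposited the table of raw counts, without a filter or normalization. The annotation release, strand setting and handling of reads with several matches are not given in the sources used here.

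The counts were tested in edgeR 4.0.16 (R 4.3.3) by its two-sided quasi-likelihood test, after scaling by TMM, for the 11560 genes whose median CPM was above 1. Each comparison was fitted to its own 6 libraries. The standard error (SE) given is the absolute log2 fold change divided by the square root of the test's F statistic. P-values were adjusted by Benjamini and Hochberg's method over these genes, with a threshold of 0.05. CPM values are scaled by TMM over all 9 libraries. The test recovered 91% of 200 genes changed 2-fold in simulated data for IgE+BSA+Luteolin against IgE+BSA, and 5.21% of its calls were false. In the data 40.0% of genes passed, and the members that rose changed at most 1.43-fold. The simulated rates therefore do not carry over to the calls of the members. No 2 replicates were the same library (lowest chi-square per degree of freedom 3.82). RPKM used the union of exons in GENCODE for GRCm38, which held 47224 of the 47643 identifiers. Alternatives used DESeq2 1.42.0, limma 3.58.1, other scalings, filters and libraries. Groups came from the labels.

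The members, the lists and the comparisons were chosen with earlier results of these data known. All members are named. From the lists of neighbouring genes, processing genes and inhibitors, genes past the filter are counted and those past the test are named. The use of Control replicate 1 alone was added after seeing the data.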

Additional observations from a re-analysis of the deposited data

How the results depend on the processing

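Between IgE+BSA+Luteolin and IgE+BSA, 9 of 10 members passed under DESeq2, limma, RLE and upper-quartile factors, every filter, thinning to the smallest total and the replicate block, where 22.4% (no filter) to 48.3% (replicate block) of all genes did, and 10 with library size alone, where 48.7% did. With all 9 libraries in 1 fit 1 member and 1093 genes passed, and at an adjusted p under 0.01 7 members and 2981 genes. Leaving out each library gave 7 to 9 members, where 28.0% to 44.0% of all genes passed. The direction of each member held in all 16 alternatives of this comparison. Library size alone and upper-quartile factors moved the median of all genes to 0.13 and 0.09, and the share of calls that were lower from 54.6% to 31.4% and 38.2%.

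The comparisons with Control depended on the libraries. Between IgE+BSA and Control, 378 genes passed, against 1227 by DESeq2, 618 without a filter, 1105 with all 9 libraries in 1 fit, 118 at an adjusted p under 0.01, 90 to 5207 with each library left out (0 to 7 members), and 4892 (10 members) with Control replicate 1 alone. With Control replicate 1 alone the direction turned for Cma1 (-0.56), Mcpt1 (-0.69), Mcpt2 (-0.56), Mcpt4 (-0.68), Mcpt8 (-0.51), Tpsg1 (-0.31), Gzmb (-0.29) and Tpsab1 (0.42). Tpsg1, at 0.03, was -0.0056 by DESeq2 and with RLE factors, -0.14 with library size alone and -0.0701 with upper-quartile factors. With each library left out, Tpsg1 ran from -0.0707 to 0.18, Cpa3 from -0.21 to 0.0298, Cma1 from -0.0373 to 0.82 and Tpsb2 from -0.26 to 0.12.

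Between IgE+BSA+Luteolin and Control, 351 genes passed, against 1379 by DESeq2, 811 without a filter, 1251 with all 9 libraries in 1 fit, 35 (0 members) at an adjusted p under 0.01, 2 to 6931 with each library left out (0 to 10 members), and 2447 (4 members) with Control replicate 1 alone. In the last fit the direction turned for Cpa3 (-0.0696), Cma1 (-0.20), Mcpt1 (-0.15), Mcpt2 (-0.0924), Mcpt4 (-0.24), Mcpt8 (-0.29), Tpsb2 (-0.24), Tpsg1 (-0.0940) and Gzmb (-0.22). DESeq2 gave no p, and so no verdict, for 4 members between IgE+BSA and Control and for 3 between IgE+BSA+Luteolin and Control.

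Libraries with the same number did not all deviate together, so the numbers were not taken to pair them. Between IgE+BSA and IgE+BSA+Luteolin, same numbers gave r = -0.02, 0.17 and 0.28, and different numbers gave -0.28 to 0.15. Whether the libraries pair in part is not settled by these values. With the replicate block 5582 genes and 9 members passed between these groups, 144 genes and 0 members between IgE+BSA and Control, and 212 genes and 1 member between IgE+BSA+Luteolin and Control. Between IgE+BSA and Control, the block moved the log2 fold changes of Mcpt1, Mcpt2 and Mcpt8 to 2.63, 2.92 and 2.65. Mcpt2 (unadjusted p = 0.0367 by edgeR) and Mcpt8 (0.0405 by edgeR) were then under 0.05, as were 1857 of all 11560 genes.

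Without Cpa3 the members took 3.30% of counts in Control, 3.20% in IgE+BSA and 4.25% in IgE+BSA+Luteolin on average, against 6.07%, 5.49% and 7.42% with it. With the length of the longest transcript, Tpsb2 was at 14052 RPKM and Tpsg1 at 406 RPKM in IgE+BSA. Where the cause of a change is not given by the libraries or genes left out, the cause was not tested.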
